A study of Mus musculus with 16 samples.

Results

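The classical complement pathway was followed through 8 genes measured in the mouse aorta: C1qa, C1qb and C1qc (the chains of C1q), C1ra and C1s (the C1 proteases), C4b and C2 (the substrates of C1), and Serping1 (C1 inhibitor). They were taken by the gene name that the array files give a probe, and 8 of 8 were found among the 28482 genes of the array. Together they have 10 probes, since C1s and C2 have 2 each, and the brightest probe of a gene was its main measure. All 10 probes were well above background on all 16 arrays, so that no member was lost to the filter on dim probes.

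The aortas came from female C57BL/6 mice that lack ApoE and therefore develop atherosclerosis, so every group, controls included, carries the deletion. All mice were ovariectomized at 4 to 5 weeks of age, received a slow-release pellet 2 weeks later and ate a Western-type diet rich in fat. The pellet, built to last 90 days, held one of 2 progestins or was a placebo; the progestins were MPA (medroxyprogesterone acetate) and NET-A (norethisterone acetate). The tissue was taken on days 78 to 90. There are 4 groups of 4 arrays: MPA with its placebo group on slides 1 and 2, and NET-A with its own placebo group on slides 3 to 5. The placebo groups were assigned by the letter in their titles and by the slides they share with a progestin. The labels give no dose, do not say that each sample is a separate animal, and describe the whole vessel wall below the arch, so that a p-value here speaks of the spread among these samples, which may be technical. In such bulk tissue, fewer cells of a type and less RNA per cell cannot be told apart.

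In the classical pathway, C1q recognizes bound antibody, pentraxins or dying cells, and this switches on C1r, which in turn cleaves C1s. Active C1s cuts C4 and C2, whose fragments form the C3 convertase. C1 inhibitor, a serpin, binds active C1r and C1s irreversibly and also inhibits the lectin pathway proteases, plasma kallikrein and factor XII. Unlike most complement proteins, which the liver secretes, C1q is made mainly by macrophages and related myeloid cells, and it collects in atherosclerotic lesions. Fibroblasts and other stromal cells are known sources of C1r, C1s, C4 and C1 inhibitor outside the liver.

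The sequences that carry the measurement are the 60-base probes, each given here 5′ to 3′ in lower case as the array files hold it. Shown are 2 C1q chains, to let a reader place the measurement within transcripts that vary together below, the C4 probe, because C4b has a close copy in C4a, and the C1 inhibitor probe, because its 60 bases stretch over 1507 bases of the genome and so bridge a splice junction.
C1qa: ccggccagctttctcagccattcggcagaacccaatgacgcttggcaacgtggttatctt
C1qb: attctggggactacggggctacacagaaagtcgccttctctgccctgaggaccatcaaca
C4b: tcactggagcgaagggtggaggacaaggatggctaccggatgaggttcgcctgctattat
Serping1: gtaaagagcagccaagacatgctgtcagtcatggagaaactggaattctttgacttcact
In build mm9, as the array files give it, the 3 C1q probes lie on the minus strand of one stretch of chromosome 4, at chr4:136436578-136436637 (C1qb), chr4:136445766-136445825 (C1qc) and chr4:136452409-136452468 (C1qa). The main probes of the proteases lie at chr6:124473052-124473111 (C1ra, plus strand) and chr6:124480828-124480887 (C1s, minus strand). Those of the substrates lie on the minus strand at chr17:34866361-34866420 (C4b) and chr17:34999575-34999634 (C2), and Serping1 is at chr2:84605968-84607474 on the minus strand. C1ra has a close relative in C1rb, and C1s in C1s2. Cross-hybridization between these copies was not tested.

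The share of spots well above background ran from 46.3% to 60.6% in the MPA experiment and from 62.3% to 78.5% in the NET-A experiment. MPA replicate 2 had the lowest share and the lowest signal, with a 75th percentile of 165 against 515 to 992 on the other arrays of its experiment. Levels below are log2 signals minus the array's 75th percentile of log2 signal. Levels of different probes are not comparable with each other. Of the markers of an aorta, all 8 smooth muscle genes and all 16 macrophage genes were on the array. Of the liver markers, 6 were on the array: Ttr, a transport protein secreted by hepatocytes, was well above background on 0 of 16 arrays, Apoa1 on 5, Alb (albumin) and Apoh on 12 each, Fgb (a fibrinogen chain) on 14 and Tat on 16.

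The C1q chains were lower on average under both progestins, by 0.48 to 0.70 on the log2 scale, but none of the 6 differences passed the test, and for every chain treated and control arrays overlapped. The A chain, C1qa, stood at 2.16, 2.98, 2.47 and 3.72 in the placebo replicates 1 to 4 of the MPA experiment. Under MPA it stood at 2.62, 1.998, 2.48 and 2.31. The controls spread over more than 1.5 log2 units and enclosed all 4 treated arrays except replicate 2. The difference was -0.48 ± 0.32 (SE, 4 against 4 arrays; 95% interval -1.21 to 0.25; limma adjusted p = 0.856). In the NET-A experiment C1qa was at 2.74, 2.55, 1.91 and 3.51 in the placebo arrays and at 2.06, 2.26, 2.005 and 2.47 under NET-A. Here all treated arrays lay inside the control range, whose top was again replicate 4. The difference was -0.48 ± 0.31 (SE; 95% interval -1.19 to 0.24; limma adjusted p = 0.903).

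C1qb, the B chain, had the lowest difference of the 8 genes under MPA. Its placebo arrays were at 1.89, 2.60, 2.11 and 2.77 and its MPA arrays at 2.10, 1.36, 1.57 and 1.52. A single treated array, replicate 1, lay in the control range, and the other 3 lay below all controls. The difference was -0.70 ± 0.24 (SE, n = 4 and 4; 95% interval -1.25 to -0.15), with a limma p of 0.0178 before and 0.784 after adjustment over 15374 genes. It is the only one of the 8 genes with an unadjusted p under 0.05 in that comparison, where 2.69% of all genes tested were that far below 0 and 0% passed the adjusted threshold. The NET-A experiment had placebo arrays at 3.04, 2.85, 2.34 and 4.00 and treated arrays at 2.23, 2.36, 2.51 and 2.91. Replicate 1 of NET-A was below all controls and the others were inside their range. The difference was -0.55 ± 0.34 (SE; 95% interval -1.32 to 0.22; limma adjusted p = 0.888).

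C1qc, the C chain, was at 4.44, 5.75, 5.36 and 6.29 in the placebo arrays and at 5.72, 4.45, 4.84 and 4.83 under MPA. The whole treated group fell inside the control range, and the difference was -0.50 ± 0.40 (SE; 95% interval -1.41 to 0.42; limma adjusted p = 0.875). Its levels in the NET-A experiment were 3.92, 3.69, 3.20 and 4.67 in the placebo arrays and 2.97, 3.43, 3.02 and 3.50 under NET-A. Replicates 1 and 3 of NET-A lay below every control. The difference, -0.64 ± 0.30 (SE; 95% interval -1.33 to 0.05), was the largest of the 8 genes under NET-A, with a limma adjusted p of 0.828. The slides differed for this chain under MPA: the difference was -0.01 within slide 1 and -0.99 within slide 2, with 2 arrays a side on each.

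**Figure D1:**
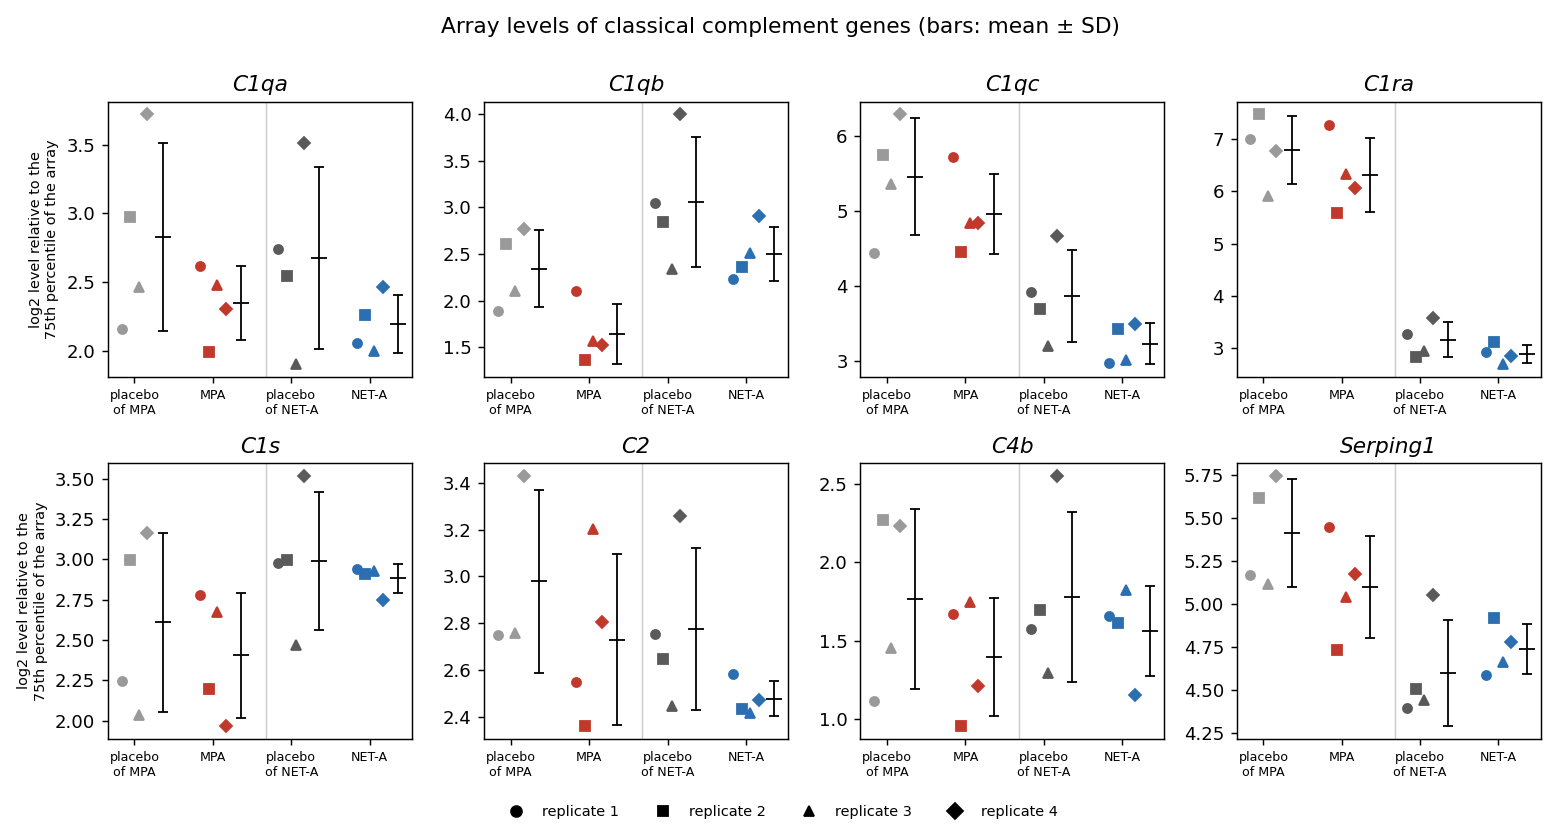
Level of each gene on every array, as log2 signal relative to the array's 75th percentile (y axis), in the 4 groups (x axis); symbols mark the replicate number and bars the mean ± SD of 4 arrays (3 for C2 in the placebo group of MPA). Placebo replicate 4 is the highest control for C1qa, C1qb and C1qc in both experiments, and C1ra sits between 5.58 and 7.48 in the MPA experiment and between 2.69 and 3.57 in the NET-A experiment.

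The highest control array weighed on these differences. Placebo replicate 4 had the top value of its group for all 3 chains in both experiments. Without it the differences under MPA were -0.18 for C1qa, -0.56 for C1qb and -0.22 for C1qc, and C1qb no longer had an unadjusted p under 0.05. Leaving out placebo replicate 1 instead gave -0.84 for C1qc. Without its counterpart in the NET-A experiment the differences were -0.20, -0.24 and -0.37, and without placebo replicate 3 of that experiment C1qa was at -0.74. The direction of each chain was the same in these cases. Within slide 5, which holds 2 arrays of each NET-A group, the differences were -0.35 for C1qa, -0.53 for C1qb and -0.47 for C1qc. The single pairs on slides 3 and 4 were also lower under NET-A for each chain, by values between -0.34 and -0.95.

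The C1 proteases were lower on average under both progestins, and neither passed the test. C1ra, which activates C1s, was at 7.00, 7.48, 5.91 and 6.77 in the placebo arrays and at 7.27, 5.58, 6.34 and 6.07 under MPA. MPA replicate 2, the dimmest array, was the only one outside the control range. The difference was -0.48 ± 0.41 (SE; 95% interval -1.41 to 0.46; limma adjusted p = 0.879) and -0.23 without that array, against -0.80 without MPA replicate 1. In the NET-A experiment C1ra was at 3.27, 2.84, 2.95 and 3.57 in the placebo arrays and at 2.92, 3.11, 2.69 and 2.85 under NET-A, a difference of -0.27 ± 0.19 (SE; limma adjusted p = 0.917). Without placebo replicate 4 that difference was -0.13. The groups overlapped in both experiments.

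C1s, the protease that cuts C4 and C2, was at 2.25, 2.99, 2.03 and 3.16 in the placebo arrays and at 2.78, 2.19, 2.68 and 1.97 under MPA, a difference of -0.20 ± 0.30 (SE; limma adjusted p = 0.920). With 1 array left out in turn it ran from -0.40 (without placebo replicate 3) to -0.020 (without placebo replicate 4). Its NET-A experiment gave 2.98, 2.99, 2.47 and 3.52 in the placebo arrays and 2.94, 2.91, 2.93 and 2.75 under NET-A, a difference of -0.11 ± 0.21 (SE; limma adjusted p = 0.997). The 4 NET-A arrays were nearly level and lay inside a wider control range. Without placebo replicate 4 the mean difference turned to 0.068. The second C1s probe differed by -0.15 ± 0.20 under MPA and by -0.02 ± 0.23 under NET-A.

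C4b, which yields the C4b fragment of the convertase, was at 1.12, 2.27, 1.45 and 2.24 in the placebo arrays and at 1.67, 0.96, 1.75 and 1.21 under MPA, a difference of -0.37 ± 0.30 (SE; limma adjusted p = 0.875). It ran from -0.59 (without placebo replicate 1) to -0.21 (without placebo replicate 2) with 1 array left out. In the NET-A experiment it was at 1.57, 1.69, 1.29 and 2.55 in the placebo arrays and at 1.66, 1.61, 1.82 and 1.15 under NET-A. That difference was -0.22 ± 0.28 (SE; limma adjusted p = 0.982), and it turned to 0.041 without placebo replicate 4. C2, the zymogen that supplies the convertase's enzyme, had 3 usable placebo arrays in the MPA experiment, because the spot of replicate 2 bore an outlier mark. They read 2.75, 2.76 and 3.43, and the MPA arrays read 2.55, 2.36, 3.20 and 2.80. The difference was -0.25 ± 0.26 (SE, 3 against 4 arrays; limma adjusted p = 0.902), and -0.17 ± 0.22 with the slide as a block. Without placebo replicate 4, the highest of its 3 controls, it was -0.025, and without MPA replicate 3 it was -0.41. For C2 the NET-A experiment gave 2.75, 2.65, 2.45 and 3.26 in the placebo arrays and 2.58, 2.43, 2.42 and 2.47 under NET-A, a difference of -0.30 ± 0.18 (SE; limma adjusted p = 0.884), and of -0.14 without placebo replicate 4. The second C2 probe differed by -0.05 ± 0.26 and -0.30 ± 0.21. For both substrates the groups overlapped under each progestin.

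Serping1 was the one member whose differences had opposite signs under the progestins. Its placebo arrays in the MPA experiment were at 5.17, 5.61, 5.12 and 5.74 and its MPA arrays at 5.45, 4.73, 5.04 and 5.18. Replicates 2 and 3 of MPA were below all controls, and the difference was -0.31 ± 0.21 (SE; 95% interval -0.79 to 0.17; limma adjusted p = 0.856). It was -0.19 without MPA replicate 2, the dimmest array, and -0.20 without placebo replicate 4. In the NET-A experiment the placebo arrays were at 4.39, 4.50, 4.44 and 5.05 and the NET-A arrays at 4.59, 4.92, 4.66 and 4.78. Every NET-A array was above 3 of the 4 controls and below the other, replicate 4. The difference was 0.14 ± 0.17 (SE; 95% interval -0.26 to 0.54; limma adjusted p = 0.980), and 0.29 without that control. Leaving out the other arrays in turn gave values down to 0.072 (without placebo replicate 1). The value was above 0 on each of slides 3, 4 and 5 (0.20, 0.16 and 0.10), and below 0 on slides 1 and 2 (-0.30 and -0.32).

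**Figure D2:**
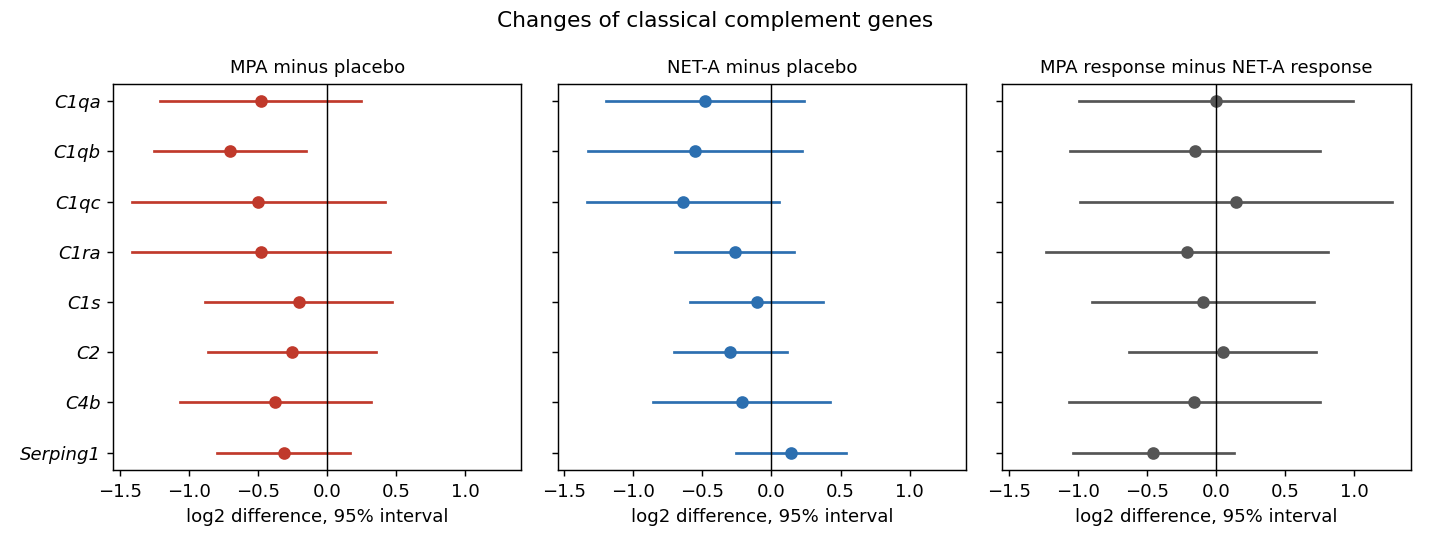
Difference in mean log2 level (x axis) for each gene (y axis) in MPA against its placebo group, NET-A against its placebo group, and the first difference minus the second; points are estimates and lines 95% intervals from limma. Every interval but that of C1qb under MPA includes 0, and Serping1 has the lowest difference of responses, at -0.45.

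Taken as a list, 8 of 8 genes had a mean below 0 under MPA, where 52.2% of all genes tested did, with a median of -0.42 against -0.01 for all 15374 genes. Under NET-A 7 of 8 were below 0, where 54.7% of genes were, with a median of -0.28 against -0.02 for all 21183 genes. No member passed the adjusted threshold in either comparison, and no member had groups that did not overlap, a state reached by 1.2% of genes downwards and 2.22% upwards under MPA, and by 2.3% and 1.61% under NET-A. The members share arrays and vary together, so their count is not a count of independent observations. All 8 stayed below 0 under MPA in each of 22 alternatives, with a median from -0.66 to -0.21, and of -0.23 without MPA replicate 2. Without that array the difference was -0.36 for C1qa, -0.61 for C1qb, -0.33 for C1qc, -0.13 for C1s and for C2, and -0.23 for C4b. Not all of the 22 could turn a sign. The filter settings and one fit over all 16 arrays left the members' estimates as they were. With the slide or the replicate number as a block the median was again -0.42. Under NET-A between 5 and 7 were below 0 in 21 alternatives, with 5 when placebo replicate 4 was left out (median -0.13). With another background correction (normexp) the NET-A median was -0.12 while all genes had a median of -0.13, so the members' median no longer lay below that of all genes, although the median of the C1q chains, at -0.41, did. The same correction gave a median of -0.66 under MPA, where all genes had 0.02. The number of members at an unadjusted limma p under 0.05 also varied. Under MPA it was 4 with normexp, 3 without placebo replicate 1 and 0 without placebo replicate 4, against 1 in the main fit. Under NET-A it was 3 without placebo replicate 3, against 0 in the main fit. In the main fits 2.69% and 3.68% of all genes were that far below 0. The matching shares in these alternatives were not counted, so the main-fit shares are no measure for them. With normexp a limma p of 0.0449 (C1qa under MPA) became 0.166 after adjustment, while 0.0178 (C1qb) became 0.784 in the main fit. Low p-values were thus more common over all genes with normexp, not in the members alone.

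MPA derives from hydroxyprogesterone and NET-A from nortestosterone, and with no dose in the labels their responses could be set side by side only as the study gave them. The response to MPA minus the response to NET-A was tested for 8 genes over all 16 arrays. None passed the threshold, which 0% of the 15243 genes tested did, and none had an unadjusted p under 0.05, which 2.57% of genes had for a lower and 4.26% for a higher response to MPA. The difference was below 0 for 6 of 8 members and for 50.4% of all genes. Serping1 had the lowest p of the 8, with a difference of -0.45 ± 0.27 (SE; 95% interval -1.04 to 0.13; limma adjusted p = 0.815). That difference was -0.95 ± 0.35 with the normexp correction, with a limma adjusted p of 0.112. This change was not particular to Serping1. The smallest limma adjusted p of any gene was 0.0737 with normexp and 0.198 without it. The median difference of the 8 members was -0.47 with normexp and -0.12 without it. Normexp used the mean signal in the MPA experiment and the median signal in the NET-A experiment. C1qa had a difference of -0.0007 ± 0.47 with an interval from -0.99 to 0.99, so a difference of up to about 1 log2 unit in either direction is compatible with these arrays. The other 6 intervals also included 0, and C1qb, C1qc, C1ra, C1s, C2 and C4b had differences between -0.21 and 0.14.

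Levels of the same probe differed between the experiments far more for some members than for others. For C1ra the placebo arrays averaged 6.79 ± 0.66 (SD, n = 4) in the MPA experiment and 3.16 ± 0.33 in the NET-A experiment, a gap of -3.63, and 0.873% of genes had a lower gap. The gap was -1.59 for C1qc, -0.81 for Serping1, 0.71 for C1qb and between -0.20 and 0.38 for C1qa, C1s, C2 and C4b. The second C1s probe had -1.11 where the first had 0.38, so 2 probes of 1 gene differed in sign. C1ra and C1qc have the probes poorest in G and C, at 35% and 38.3%. Both C1s probes have 41.7%, although their gaps differ in sign. The probes of C1qa, C1qb and C4b all have 55%, with gaps of -0.15, 0.71 and 0.01. The part of G and C content in the gaps was not tested. Over all genes the median gap was -0.68 for probes of up to 35% G and C and 0.69 for probes above 50% and up to 55%. The experiments differ in slides and scanner software as well as in animals, and these cannot be told apart, so no gap is read as biology here.

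The members varied together from array to array. After subtraction of each group's mean, C1qa and C1qb correlated by 0.91 over 16 arrays, C1qa and C1qc by 0.93, and C1qb and C1qc by 0.89. The standard deviation of the 3-chain mean within groups was 0.50, while that of the gap between C1qa and C1qb was 0.21, so most of the spread of the chains between replicates was shared. Over all 28 pairs of members the correlation ran from 0.32 (C1ra with C2, 15 arrays) to 0.93, with a median of 0.76. The closest pair outside C1q was C1s and C4b, with 0.89. C1ra stood furthest from C1q, with 0.50 against the 3-chain mean, while Serping1 was at 0.81 to 0.86 with each chain. Some of these values differed between the experiments: C1ra had 0.47 with the C1q mean in the MPA experiment and 0.74 in the NET-A experiment, and with C2 it had 0.18 and 0.79. The arrays share slides and labelling within an experiment, which these values include, and they are descriptions with no test.

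**Figure D3:**
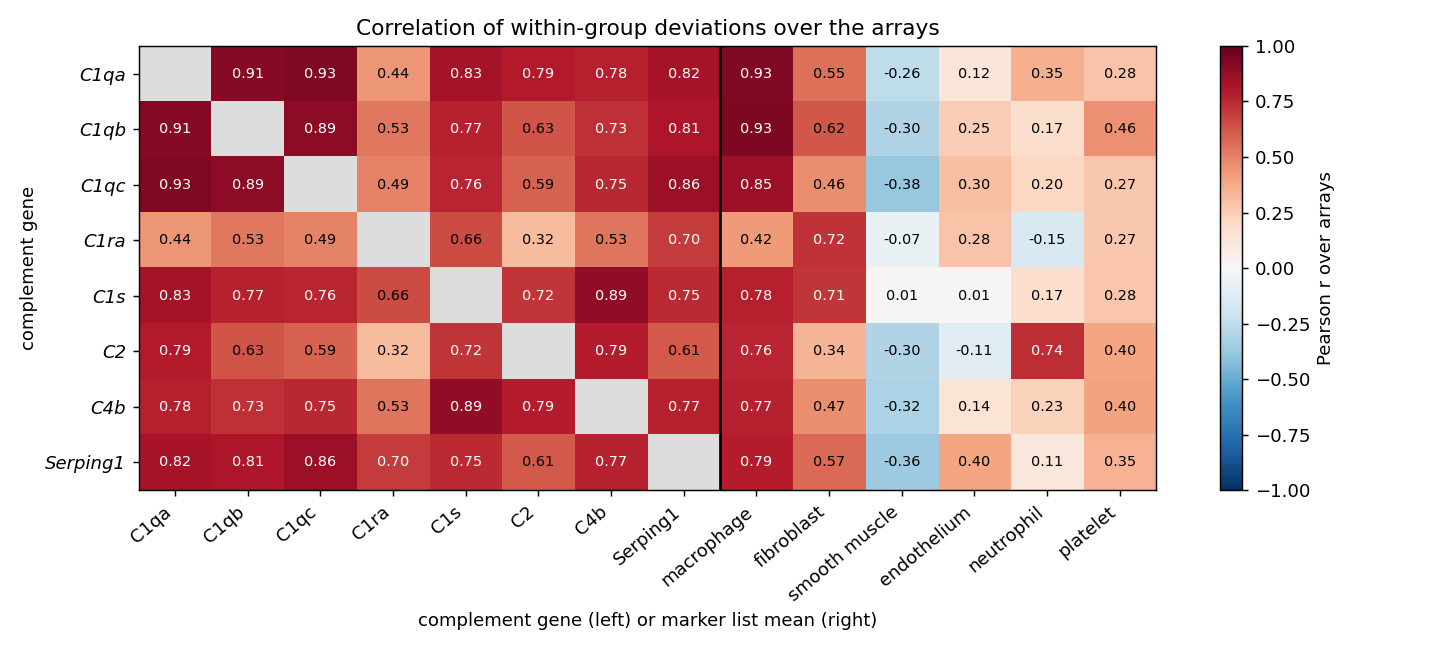
Pearson correlation of array values after subtraction of the group means, over the 16 arrays of both experiments (15 for C2), between the 8 genes (rows) and the same genes or the mean of a marker list (columns, left and right of the black line); grey cells are a gene with itself. The C1q block lies between 0.89 and 0.93 and its macrophage column between 0.85 and 0.93, while C1ra has 0.42 with macrophage and 0.72 with fibroblast markers, an order that holds in the MPA experiment alone.

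Macrophage markers varied with C1q from array to array. The mean of 16 macrophage genes, among them Cd68, Csf1r and Trem2, correlated with the C1q mean by 0.93 (Spearman 0.88) over 16 arrays, and by 0.88 without the 2 arrays furthest from the median, both placebo replicates 4. Within the experiments it was 0.95 (MPA) and 0.92 (NET-A). Its value ran from 2.82 to 3.94 in the placebo group of MPA and from 2.57 to 2.90 under MPA. For NET-A it ran from 1.46 to 2.85 in the placebo group and from 1.18 to 1.62 under NET-A. Placebo replicate 4 held the top value in both experiments. The next highest controls were at 3.55 in the MPA experiment and at 1.78 in the NET-A experiment. All 16 of the genes had a mean below 0 in each comparison, where 52.2% and 54.7% of all genes tested did, with medians of -0.57 and -0.59, and 0 passed the adjusted threshold. Of them, 6 had a limma unadjusted p under 0.05 under MPA and 5 under NET-A, all lower, against 2.69% and 3.68% of all genes. The markers were measured on the same arrays, so these are not counts of independent observations. All 16 were well above background on all 16 arrays. Relative to the macrophage mean, the C1q mean was 0.19 ± 0.13 (SD, n = 4) in the placebo group and 0.27 ± 0.23 under MPA, and 1.30 ± 0.23 and 1.32 ± 0.14 in the NET-A experiment. Set against these markers, the C1q mean was thus no lower on average under either progestin. Neutrophil markers lay above 0 in 4 of 4 genes tested under MPA (median 2.37) and 6 of 6 under NET-A (median 1.04), and platelet markers in 5 of 5 under each (medians 0.43 and 1.93), with 0 past the adjusted threshold. Of the liver markers, 4 of 5 tested lay below 0 under MPA (median -0.67) and 3 of 4 under NET-A (median -0.26), and 0 passed. Fgb differed by -0.95 ± 0.40 (limma unadjusted p = 0.0416, adjusted p = 0.799) under MPA and by 0.83 ± 0.39 under NET-A, Apoh by -1.14 ± 0.58 and -0.46 ± 0.37, and Alb by -0.67 ± 0.56 and -0.97 ± 0.75. The mean of the 4 liver markers tested in both experiments correlated with the members by -0.47 to -0.0016 in the MPA experiment and by 0.20 to 0.81 in the NET-A experiment. In the latter that mean was low, at -3.40 in the placebo group and -3.57 under NET-A. Of the 6 liver genes, 1 was well above background on placebo replicate 1 of NET-A and 5 on placebo replicate 4. The part of cell composition in the results on C1q was not tested.

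**Figure D4:**
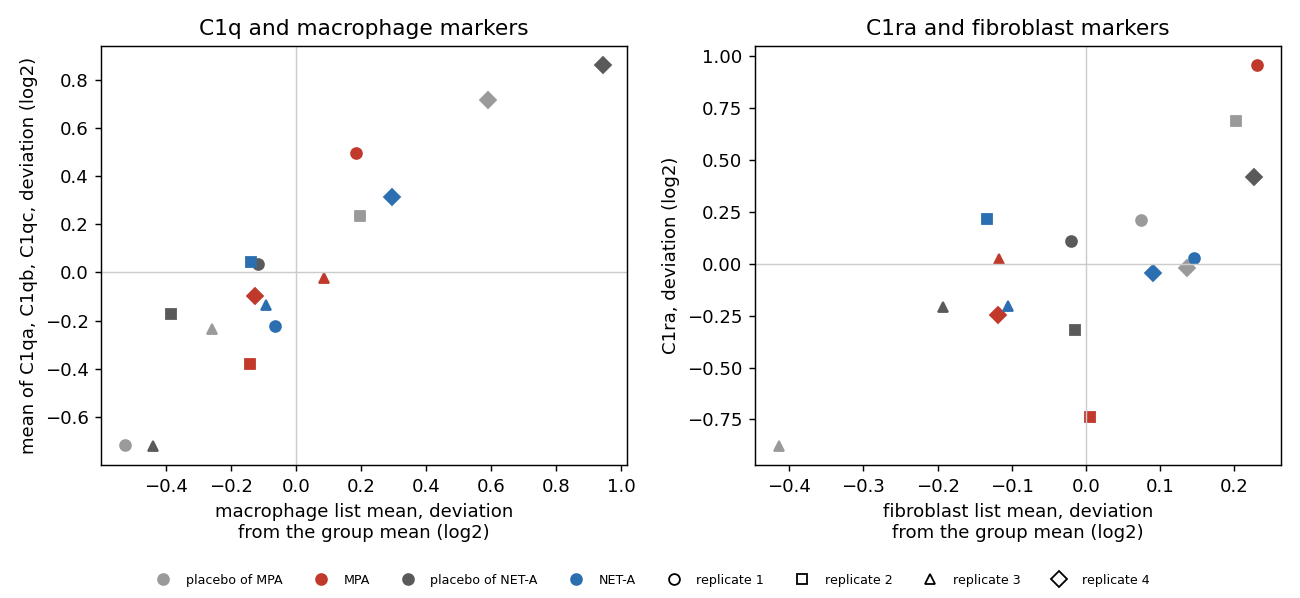
Left, mean of C1qa, C1qb and C1qc against the mean of 16 macrophage markers; right, C1ra against the mean of 10 fibroblast markers; both axes are deviations from the group mean in log2 units, colours mark the 4 groups and symbols the replicate number. The left points follow a line (r = 0.93) whose upper end is held by both placebo replicates 4, and the right points spread wider (r = 0.72 over both experiments).

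Of 10 fibroblast markers, among them Pdgfra, Dcn and Col1a1, 8 had a mean below 0 under MPA (median -0.25) and 5 under NET-A (median -0.02), and 0 passed, with 0 and 1 at a limma unadjusted p under 0.05. Of all genes tested, 52.2% and 54.7% had a mean below 0, and 2.69% and 3.68% were lower at a limma unadjusted p under 0.05. The 1 such fibroblast marker under NET-A was lower. The 2 experiments ordered the markers differently for some members, so the values are given within each (8 arrays, or 7 for C2 in the MPA experiment). In the MPA experiment C1ra correlated by 0.80 with the fibroblast and by 0.37 with the macrophage mean, while in the NET-A experiment it had 0.52 and 0.75. Over all 16 arrays it had 0.72 and 0.42. C2 had 0.06 with fibroblast and 0.67 with macrophage markers in the MPA experiment, and 0.86 and 0.92 in the NET-A experiment. Its correlation with the neutrophil markers was 0.84 and 0.59. C1s was close to both lists in each experiment, with 0.71 and 0.72 for fibroblast and 0.88 and 0.76 for macrophage markers. Serping1 had 0.63 and 0.46 with fibroblast and 0.80 and 0.82 with macrophage markers. Smooth muscle markers correlated with the 8 members by -0.17 to 0.31 in the MPA experiment and by -0.91 (Serping1) to -0.57 (C1s) in the NET-A experiment, where all 8 values were below 0. Pooled over the experiments the range was -0.38 to 0.01.

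Of 11947 other genes well above background on all 16 arrays, the 5 most like the C1q mean by the same correlation were Tlr7 (0.97), Lgals3bp (0.96), Myo1f (0.96), Fcer1g (0.96) and Cd300a (0.95), where the median gene had 0.03. Tlr7 is an endosomal receptor for single-stranded RNA, Fcer1g the common gamma chain of Fc receptors, and Cd300a an inhibitory receptor of myeloid cells. For the mean of C1ra, C1s and Serping1 the first 4 were Emp1 (0.94), Marcks (0.94), Nt5dc3 (0.93) and Pgs1 (0.93), where the median gene had 0.11.

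Promoters from RefSeq (build GRCm38.p6) were available for C1qb, C1qc, C1ra and C1s (named C1s1 there, with 2 start sites). Because C1qb and C1qc varied together, the 250 bases before their start sites are shown, 5′ to 3′ on the gene's own strand, with matches to any of the searched motifs in capitals.
C1qb, chr4:136886201-136886450, minus strand: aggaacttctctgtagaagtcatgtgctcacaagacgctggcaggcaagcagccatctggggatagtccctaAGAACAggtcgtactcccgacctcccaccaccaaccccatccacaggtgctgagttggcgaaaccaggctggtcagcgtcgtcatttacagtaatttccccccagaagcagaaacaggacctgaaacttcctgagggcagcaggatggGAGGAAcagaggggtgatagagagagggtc
C1qc, chr4:136892915-136893164, minus strand: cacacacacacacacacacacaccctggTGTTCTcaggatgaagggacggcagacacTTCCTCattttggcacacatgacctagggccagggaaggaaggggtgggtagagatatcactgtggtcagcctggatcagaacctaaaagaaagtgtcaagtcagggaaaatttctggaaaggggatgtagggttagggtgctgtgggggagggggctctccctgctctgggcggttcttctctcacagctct
The motifs were searched on both strands in 32851 promoters of this length. GAGGAA, the core bound by ETS factors such as PU.1, was found once in each, and 23.3% of all promoters hold it. AGAACA, the core recognized by each arm of a steroid receptor dimer, as in the progesterone, androgen and glucocorticoid receptors, was also found once in each, against 16.1% of promoters. Neither window held the core of the full steroid receptor palindrome, ACANNNTGT (5.83% of promoters), the STAT palindrome TTCNNNGAA (7.02%) or GAAANNGAA (7.13%), a form of the interferon-stimulated response element. C1ra held 0 of the 5 motifs, and both C1s start sites had AGAACA alone, 30 and 68 bases before the start. The 2 C1s windows overlap, and these are 1 and the same match. A match is a string of letters, not a measured site, and AGAACA has no overlap with the other motifs in these windows.

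Around these 8 genes, 64 other genes of complement and its control were listed, of which 63 were on the array. Under MPA 45 could be tested: 34 had a mean below 0, 11 above, and 0 passed, with 5 at an unadjusted p under 0.05, all lower. Under NET-A 54 could be tested: 34 below, 20 above and 0 passed, with 3 unadjusted in each direction. Of all genes tested, 52.2% had a mean below 0 under MPA and 54.7% under NET-A. The share of all genes at an unadjusted p under 0.05 was 2.69% lower and 3.51% higher under MPA, and 3.68% lower and 2.5% higher under NET-A.

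Among regulators, Cfi had the largest difference under MPA. This protease, factor I, cleaves C4b and C3b. It was at -0.13, -0.33, 0.37 and -0.12 in the placebo arrays and at -0.76, -0.67, -1.21 and -1.41 under MPA, so the groups did not overlap. The difference was -0.96 ± 0.22 (SE; limma unadjusted p = 0.00192, adjusted p = 0.662). Vtn, the terminal pathway inhibitor vitronectin, differed by -0.79 ± 0.33, and C1rb, the relative of C1ra, by -0.40 ± 0.16, both without overlap and both with limma adjusted p from 0.784 to 0.799. Their groups were barely separate. The lowest Vtn control was at -0.965 and the highest MPA array at -0.978. For C1rb these values were -0.049 and -0.068. The transcription factor Cebpb differed by -0.83 ± 0.25. C3, the hub of all pathways, differed by -0.40 ± 0.30 under MPA and by -0.10 ± 0.24 under NET-A. C4a differed by 0.18 ± 0.36 and -0.14 ± 0.30, and its estimate under MPA was within its error of 0. In that experiment its probe was well above background on 2 of 4 placebo and 3 of 4 MPA arrays. Masp2, the C4-cleaving protease of the lectin pathway that C1 inhibitor also blocks, differed by -0.36 ± 0.27 and 0.11 ± 0.19.

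Under NET-A the largest difference of the listed genes with an unadjusted p under 0.05 was that of C7, a component of the membrane attack complex. Its placebo arrays were at -3.94, -4.36, -2.66 and -2.46 and its NET-A arrays at -2.18, -1.53, -0.61 and -1.50. All treated arrays were above all controls, and 1 control was not well above background. The difference was 1.90 ± 0.50 (SE; limma unadjusted p = 0.00473, adjusted p = 0.607). Plg, the plasmin precursor, differed by 1.15 ± 0.25, although 1 of its 4 placebo arrays and 3 of its 4 NET-A arrays were well above background. The bradykinin receptor Bdkrb2 differed by 0.88 ± 0.28. Of the genes below 0, Megf10, a phagocytic receptor that binds C1q, differed by -1.11 ± 0.19 without overlap, the collagen and C1q receptor Lair1 by -0.85 ± 0.37, and the regulator Cd46 by -0.85 ± 0.27. Megf10 and Cd46 were dim, with means of -4.92 and -4.79 under NET-A. Each was well above background on 4 of 4 placebo and 3 of 4 NET-A arrays, and on 0 of 8 arrays of the MPA experiment. C7 was also the one listed gene whose responses to the progestins differed at an unadjusted p under 0.05, by -2.18 ± 0.70 (MPA minus NET-A; limma adjusted p = 0.565).

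**Figure D5:**
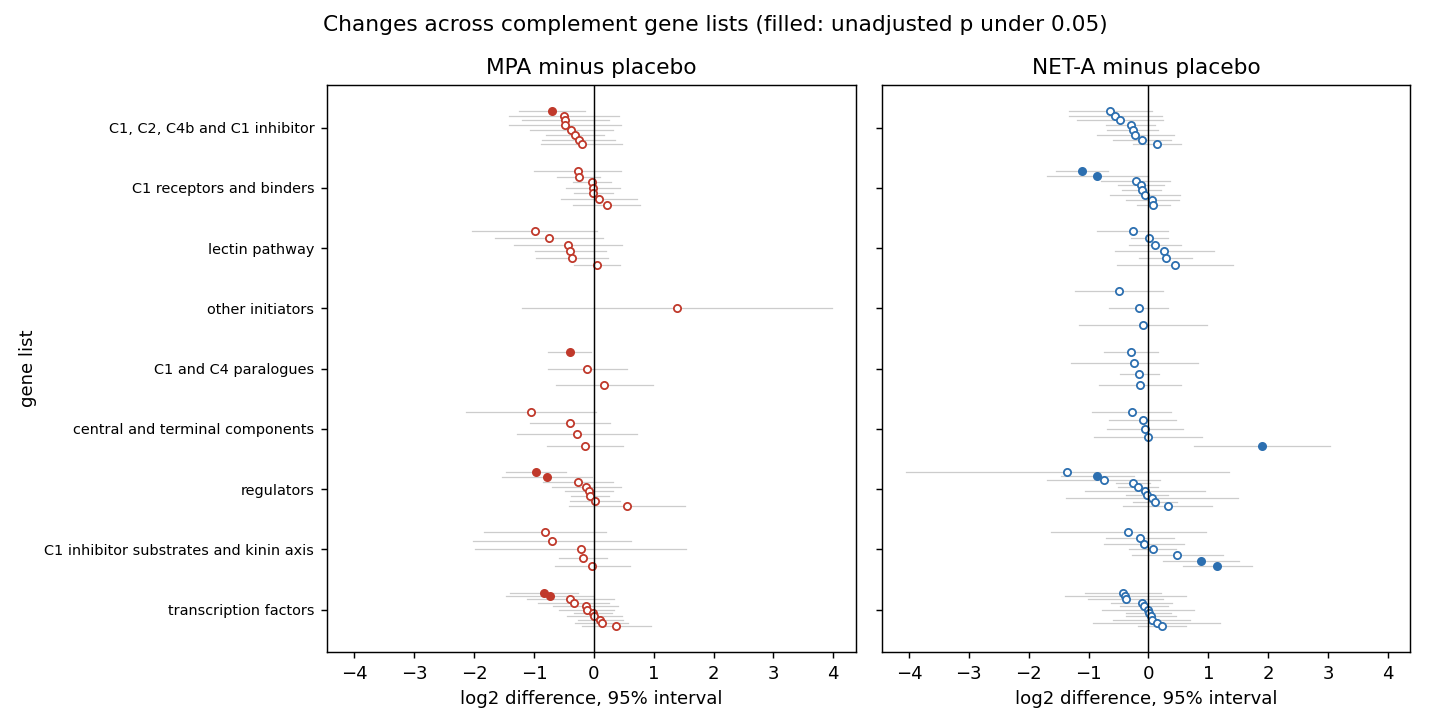
Difference in mean log2 level against placebo (x axis) under MPA (left) and NET-A (right) for the 8 genes (top row) and 8 lists of related genes (y axis); each point is a gene, grey lines are 95% intervals, and filled points have an unadjusted limma p under 0.05. C1qb is the only filled point in the top row, Cfi (-0.96) is the lowest filled point under MPA and C7 (1.90) the highest under NET-A.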

How the data were processed

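Per the file headers, the authors scanned one-colour arrays of 45018 spots, annotated on mm9, and took each spot's intensity from Agilent Feature Extraction (10.7.1.1 for MPA, 11.0.1.1 for NET-A), background-subtracted and not normalized between arrays. The deposited series table holds log2 values; how they were made is not stated in these sources. Its columns correlated by 0.998 to 1.00 with quantile-normalized log2 signals centred on each probe's median within the experiment, so scale and centring are inferred, and column medians ran from -0.03 to 0.02.

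Outlier spots were left out (1802 probe values), spots of a probe averaged to 41174 probes, and each array's 75th percentile of log2 signal subtracted. The NET-A files hold no gene names, which were taken from the MPA files by probe. Accessions matched for 26690 probes. Genes well above background on at least 4 of the 8 arrays of an experiment were fitted with limma 3.58.1 (lmFit and eBayes in R 4.3.3; two-sided p-values adjusted by Benjamini-Hochberg, called at 0.05), first checked on simulated data. The difference of responses used all 16 arrays. The number of arrays limits the precision. Unadjusted p-values are limma's.

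The 8 members and all lists were chosen with earlier results of these data known. Named were the members, the 5 genes most like each of 2 member means, listed genes with an unadjusted p under 0.05, and C3, C4a and Masp2. One gene that this rule names is not reported here. Alternatives covered background, scaling, filters, slide and replicate blocks, array weights, outliers, probes, the series table, one joint fit, single slides and left-out arrays.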

Additional observations from a re-analysis of the deposited data

Results flagged for a closer look

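Serping1 in placebo replicate 4 of the NET-A experiment stood at 5.05, while the other 3 arrays of the group lay between 4.39 and 4.50. The gap to its nearest neighbour was 0.830 of the group's range, just above Dixon's limit of 0.829 for 4 arrays. It was the 1 value so far out among 31 groups of 4 arrays examined (8 genes in 4 groups, less C2 with 3 usable arrays in the placebo group of MPA), and chance alone flags about 1 in 20. The same array was the highest of its group for each of the other 7 members. Without it the difference of Serping1 under NET-A was 0.29 in place of 0.14.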

How the results depend on the processing

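No member passed the adjusted threshold in any of 560 fits over 31 alternative settings, and 526 of those fits kept the direction of the estimate. Of the 34 that turned it, 26 left out 1 array. With arrays left out in turn, the difference between the responses ran from -0.28 to 0.30 for C1qa, -0.46 to 0.090 for C1qb, -0.20 to 0.42 for C1qc, -0.53 to 0.036 for C1ra, -0.29 to 0.088 for C1s, -0.11 to 0.27 for C2 and -0.41 to 0.011 for C4b, and the change under NET-A from -0.28 to 0.068 for C1s and -0.38 to 0.041 for C4b. The other turns were, for the difference between responses, C1qa at 0.064 with quantile normalization, 0.062 with the series table and 0.031 with array weights, C1qc at -0.33 with normexp and -0.023 with median scaling, and C2 at -0.37 with normexp and -0.13 with median scaling; and C1s under NET-A at 0.040 with normexp. Their cause was not tested. Normexp used the median signal in the NET-A experiment and the mean signal in the MPA experiment. Median scaling moved the median of all genes in the difference to -0.17.

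Over all genes, the count past the threshold was 0 in each comparison. It became 1 under MPA with the slide as a block and with one fit over all 16 arrays, and 0 under NET-A in every alternative run. For the difference between responses it became 1 without NET-A replicate 1, and ran from 0 to 1 over the arrays left out in turn. With the replicate number as a block it was 1 for that difference and 0 in either comparison with placebo. Arrays of the same number correlated between -0.23 and 0.23 in the MPA experiment and between -0.33 and 0.33 in the NET-A experiment, so the numbers were not taken to pair the samples. In the NET-A experiment, treated and placebo arrays correlated by 0.14 to 0.46 on the same slide and by -0.35 to 0.13 on different slides. In the MPA experiment these ranges were -0.23 to 0.26 and -0.26 to 0.20. The main fits hold no term for the slide. Under MPA, normexp lowered the smallest adjusted p of a member to 0.089 (C1qb), and the alternatives otherwise gave C1qb 0.366 or more. With normexp 0.089 was also the smallest limma adjusted p of any gene under MPA, against 0.662 without it.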
